A study of Mus musculus with 13 samples.

Results

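The immediate early and heat shock genes make up a set of 35 genes, 22 immediate early and 13 heat shock genes, among the 19838 genes in each deposited table. They were chosen by name from these gene families, and each was read from the row that carries its symbol. Immediate early genes are transcribed within minutes of a stimulus without new protein synthesis, and most encode short-lived transcription factors (AP-1, EGR, NR4A and KLF proteins) or regulators of signalling and RNA decay. Heat shock genes encode chaperones that keep proteins folded, and the inducible ones are switched on by heat shock factor HSF1 under protein stress. Both sets respond to exercise and injury in muscle and to flow and injury in the vessel wall, and both can respond to how a tissue is taken.

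Gene counts came from 13 libraries of snap-frozen tissue, 6 of aorta and 7 of gastrocnemius muscle, taken at 88 weeks of age from mice of a mixed FVB and C57BL/6 background. The control mice, labelled GFP-FOXM1dNdK-/-Rosa26-rtTAtg/+ and called Rosa26 here, carried the doxycycline-dependent transactivator rtTA at the Rosa26 locus and no FOXM1 transgene. The other mice, labelled GFP-FOXM1dNdKtg/+Rosa26-rtTAtg/+ and called dNdK here, carried rtTA as well and also a GFP-tagged form of FOXM1, a transcription factor of the cell cycle. The libraries fall into aorta Rosa26 (4), aorta dNdK (2), muscle Rosa26 (4) and muscle dNdK (3). The labels used here give no doxycycline treatment, no sex, no sequencing run and no promoter for the transgene. They number the samples of a group without saying that each is another animal, so p-values measure the spread between these samples.

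Depth was 3919526 to 13683952 gene counts per library. Levels are given as scaled CPM, counts brought to a common library size with TMM factors for all 13 libraries. The floor of detection was set at 3 counts, or 0.168 to 0.631 scaled CPM depending on the library, and it covers counting error only. Each gene was read through a short amplicon, so levels are not compared between genes. Foxm1 itself held 3, 24, 13 and 2 counts in aorta Rosa26 1 to 4, 2 and 5 counts in aorta dNdK and 0 to 3 counts in muscle, and whether its amplicon reads the transgene is not stated.

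Libraries of the same group also differed in the tissues they held, measured as summed plain CPM of marker lists. Skeletal muscle markers summed to 218100 to 298000 CPM in muscle and to at most 75.6 CPM in aorta. In aorta, markers of brown and white fat summed to 24080 to 31120 CPM and smooth muscle markers to 342 to 664 CPM. Myh11, the smooth muscle myosin, stood at 71.9 to 102.9 CPM there. Tagln, another smooth muscle marker, was at 0 in both aorta dNdK libraries and also in every muscle Rosa26 library. A level of 0 for Tagln was thus not particular to dNdK. Aorta Rosa26 1, Rosa26 2 and dNdK 2 also held heart muscle RNA, with Myh6, the heart's alpha myosin, at 911, 394 and 685 CPM and at most 2.13 CPM in the other 3 aorta libraries. Endothelial markers summed to 2816 and 1997 CPM in aorta Rosa26 3 and 4 and to 1043 to 1297 CPM in the other 4 aorta libraries. Lymphocyte markers summed to 179.7 and 506 CPM in aorta Rosa26 1 and 2 and to at most 53 CPM in the other 4. Muscle dNdK 3 held fat RNA, with fat markers at 12930 CPM against at most 832 CPM in the other muscle libraries. Muscle Rosa26 2, Rosa26 3 and dNdK 2 carry consecutive barcode numbers, 65 to 67, in the deposited names, and what those numbers stand for beyond the barcode is not stated.

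Of the 35 genes, 5 were too low to be tested. Hspb1, a small heat shock protein, Hspa8, the constitutive cytosolic HSP70, Hsp90aa1, the inducible HSP90, and Hspd1, the mitochondrial HSP60, held at most 3 counts in any library, which is the floor. Egr2, a zinc finger transcription factor, held 0 to 10 counts and lay above the floor in 5 libraries. These 5 passed the filter on low counts in none of the 5 comparisons. Hsp90ab1, the constitutive paralog of Hsp90aa1, held 9150 to 34402 counts, and Hspe1, which encodes the partner of HSP60, held 968 to 8162.

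The counting used here gives a read to a gene only where it aligns to 1 place. In GENCODE transcripts, 84.5% of the bases of the longest Hspa8 transcript had a match of high identity in transcripts of 6 other genes, 5 of them pseudogenes. The share was 68.7% for Hsp90aa1 with 3 other genes, 71.1% for Hspd1 with 3, and 72.6% for Hspb1 with 2. It was 0% for Hsp90ab1, yet 81% for Hspe1, which was read well. Where the amplicons lie within these transcripts is not given, and the part of such copies in the low counts was not tested. Egr3, Ier5 and Fosb were low throughout, at 1 to 27, 1 to 21 and 1 to 91 counts, and each was left out of some comparisons by the same filter.

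**Figure D1:**
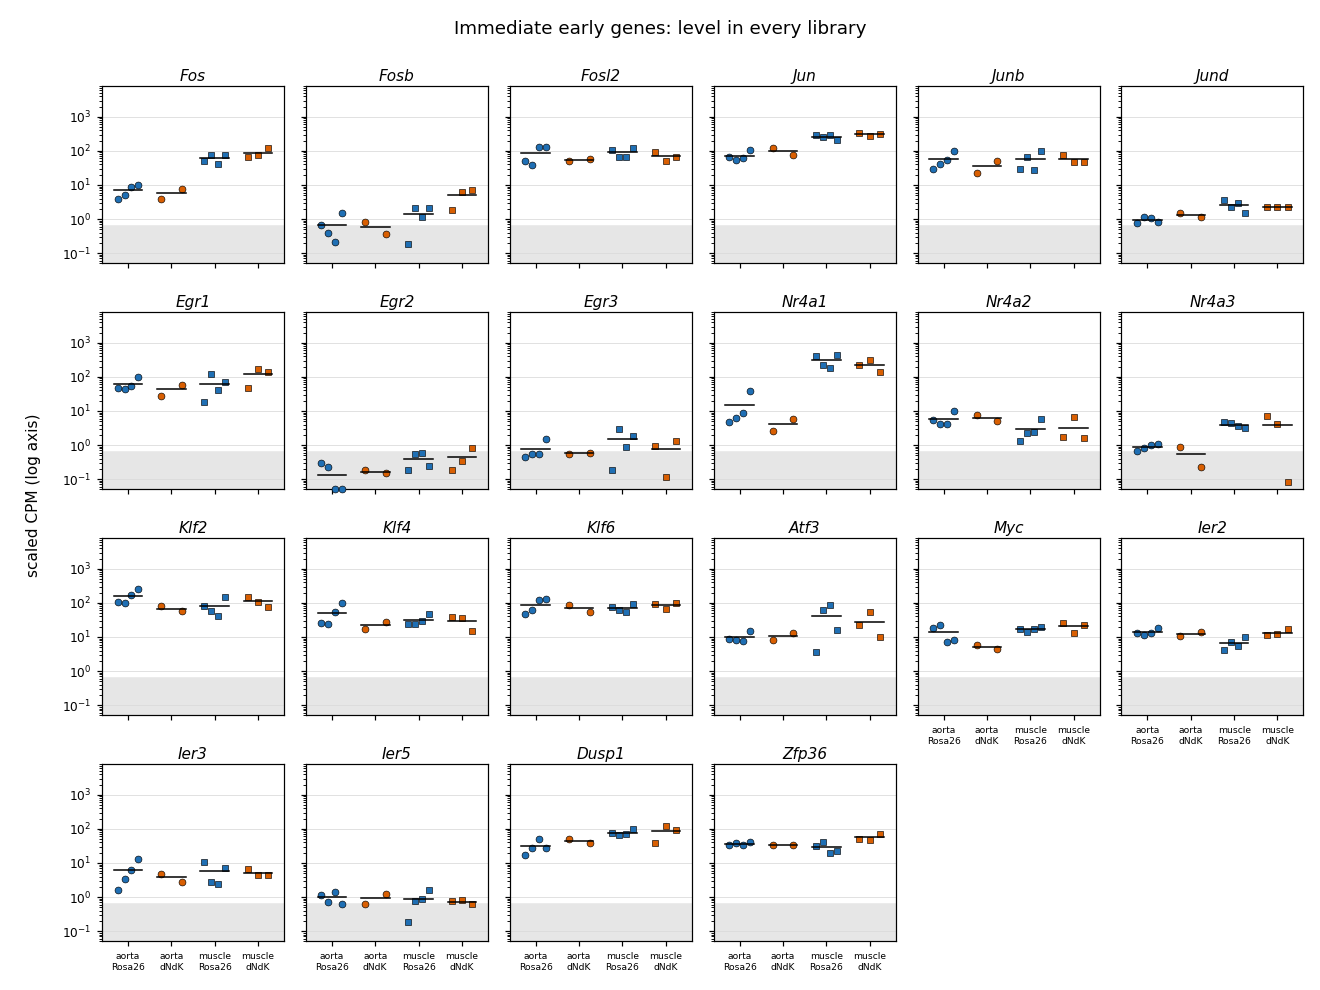
Level of each of the 22 immediate early genes in every library, in scaled CPM on a log axis. Circles are aorta and squares muscle, blue Rosa26 and orange dNdK, black bars group means, and the grey band the range at or below 3 counts in the shallowest library, with 0 drawn at the lower edge. Nr4a1, Fos and Jun stand higher in all muscle libraries than in any aorta library.

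The first question was how the 2 tissues differ in these genes within the control genotype. In Rosa26 mice, 11 of the 28 genes tested were lower in aorta than in muscle and 3 were higher, at an adjusted p under 0.05 in edgeR's quasi-likelihood test. Over all 11058 genes tested, 58.4% passed the same threshold, 27.5% lower and 31% higher. The Rosa26 groups did not overlap for 9 genes that were lower and 2 that were higher, as for 26% and 26.9% of all genes. In both directions together the share among these genes was below that of all genes, while the share called lower was above it. The lower genes were led by Nr4a1 (22.3-fold), Fos (8.96-fold), Atf3 (4.39-fold), Nr4a3 (4.36-fold) and Jun (3.6-fold), all encoding transcription factors. The higher genes were Ier2, Dnajb1 (each 2.12-fold) and Hspe1 (2.07-fold). Fewer cells of a type and less RNA per cell cannot be told apart in bulk tissue. All 10 fat markers tested were called higher in aorta in Rosa26. The aorta side of each tissue difference thus held fat RNA, and the part of that RNA was not tested.

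The choice of scaling bears on every tissue difference, and the skeletal muscle markers alone took 218100 to 298000 CPM of the muscle libraries. Scaling by library size alone moved the median log2 fold change of all genes from 0.08 to 0.96, aorta over muscle. It moved the median of the 28 from -0.03 to 0.81. Under it, 10 of the 28 were called higher and 4 lower, against 6254 higher and 1298 lower of all 11058 genes. Of all calls 82.8% were then higher, against 53% under TMM. Under upper quartile scaling the counts were 5 higher and 10 lower, against 4142 higher and 2404 lower of all genes (63.3% of calls higher). Fos, Jun, Nr4a1 and Nr4a3 stayed lower in aorta, and Ier2, Dnajb1 and Hspe1 higher, past the threshold under all 4 scalings run. With the number in the deposited names as a block, the counts were 5 higher and 10 lower. The share of all genes called under this block is not given, so these counts are not read as a result about the set. Klf2 (log2 fold change 1.05, adjusted p = 0.0043) and Nr4a2 (1.13, 0.0437) were then called, and Atf3 (-0.855, 0.404) was not.

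AP-1 is a dimer of FOS and JUN family proteins that binds a palindrome in promoters and enhancers. Fos stood at 3.98, 5.05, 8.77 and 10.1 scaled CPM in aorta Rosa26 1 to 4 and at 3.79 and 7.82 in aorta dNdK 1 and 2. In muscle its levels were 51, 78.1, 41.4 and 76.3 in Rosa26 and 64.7, 76.5 and 122 in dNdK. The tissues did not overlap in either genotype. In Rosa26 the log2 fold change, aorta over muscle, was -3.16 (SE 0.36, adjusted p = 3.59e-05).

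Jun, the main partner of FOS, stood at 65.8, 54.5, 63.8 and 107 scaled CPM in aorta Rosa26 and at 122 and 73.3 in aorta dNdK. Muscle libraries held 283, 258, 297 and 215 in Rosa26 and 336, 279 and 309 in dNdK. Every muscle library lay above every aorta library, and the log2 fold change in Rosa26 was -1.85 (SE 0.24, adjusted p = 0.000104). Jund, a JUN protein that is expressed without stimulation, was read at 4 to 29 counts. It stood at 0.751, 1.12, 1.1 and 0.841 scaled CPM in aorta Rosa26 and at 1.53 and 1.12 in aorta dNdK, and in muscle at 3.73, 2.24, 2.88 and 1.5 in Rosa26 and at 2.3, 2.23 and 2.24 in dNdK. The Rosa26 groups did not overlap. Their log2 fold change was -1.39 (SE 0.40, adjusted p = 0.0132). Scaled by library size alone it was -0.503 and lost the call (adjusted p = 0.296). Of the longest Jund transcript 52.8% has copies elsewhere, so its level is uncertain.

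The other AP-1 genes did not pass the threshold between the tissues in Rosa26. Junb ranged from 22.4 to 99.2 scaled CPM in aorta and from 27.3 to 100 in muscle, with a log2 fold change of -0.01 (95% interval -1.05 to 1.02). Fosl2 ranged from 39.8 to 133 and from 49.7 to 121, with -0.02 (-0.93 to 0.89). Both spanned the same range in the 2 tissues, so their fold changes stand near 0 beside those of Fos and Jun. Fosb was too low in Rosa26 to be tested between tissues.

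Sequence upstream of Fos is shown because Fos is the AP-1 gene with the largest tissue difference and its promoter is a standard example of a cAMP response element (CRE). The 250 bases before the RefSeq start of Fos lie at chr12:85473640-85473889 on the plus strand of GRCm38.p6, printed 5′ to 3′ with the CRE half-site TGACG or its complement CGTCA in capitals.
Fos: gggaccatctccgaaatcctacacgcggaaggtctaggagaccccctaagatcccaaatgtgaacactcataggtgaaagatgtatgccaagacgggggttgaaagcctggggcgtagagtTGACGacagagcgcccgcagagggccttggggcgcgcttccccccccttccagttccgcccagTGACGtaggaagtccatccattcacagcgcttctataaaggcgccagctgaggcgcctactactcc
The half-site occurs at 2 places in this window. Of the 22 immediate early genes, 18 matched an entry of the promoter table, and 11 of these (61.1%) held the half-site on either strand. Of the 13 heat shock genes 10 matched and 6 (60%) held it, against 19.8% of all 27025 genes with an entry. The AP-1 site TGANTCA was in none of the 18 and in 2 of the 10 heat shock promoters, Hspa5 and Bag3, against 7.82% of all. Such matches describe the letters in these windows and are not sites of binding. Egr1, Egr3, Ier2, Myc, Hspa8, Hsp90aa1 and Hsp90ab1 had no entry.

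The NR4A proteins are orphan nuclear receptors that act without a known natural ligand, and in muscle they respond to beta-adrenergic signals and exercise. Nr4a1 was read at 4.73, 6.34, 8.7 and 39.1 scaled CPM in aorta Rosa26 and at 2.52 and 5.66 in aorta dNdK. In muscle it was read at 407, 229, 184 and 449 in Rosa26 and at 226, 305 and 143 in dNdK. The lowest muscle library lay above the highest aorta library, and the log2 fold change in Rosa26 was -4.48 (SE 0.70, adjusted p = 0.000336). Without aorta Rosa26 4, which held the level of 39.1, it was -5.61, and without the aorta libraries with heart RNA it was -3.79.

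Nr4a3 showed the same direction at a far lower count, with at most 39 counts in a library. It stood at 0.675, 0.841, 1.04 and 1.05 scaled CPM in aorta Rosa26 and at 0.901 and 0.223 in aorta dNdK. Its muscle levels were 4.67, 4.36, 3.58 and 3.13 in Rosa26 and 7.27, 4.11 and 0.0801 in dNdK. The Rosa26 groups did not overlap, and the log2 fold change was -2.12 (SE 0.35, adjusted p = 0.000521). Muscle dNdK 3, which held fat RNA, had 1 count of it, and the part of that tissue mixture was not tested. Nr4a2 ranged from 4.07 to 9.88 in aorta and from 1.31 to 6.45 in muscle. Its log2 fold change in Rosa26, 0.94 (95% interval -0.16 to 2.03), did not pass the threshold.

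The Nr4a1 promoter is shown because this gene had the largest tissue difference of the set. The window lies at chr15:101266596-101266845 on the plus strand of GRCm38.p6, inside the annotated gene, whose span begins at base 101253902 of chromosome 15 with a longer transcript. The CRE half-site is in capitals.
Nr4a1: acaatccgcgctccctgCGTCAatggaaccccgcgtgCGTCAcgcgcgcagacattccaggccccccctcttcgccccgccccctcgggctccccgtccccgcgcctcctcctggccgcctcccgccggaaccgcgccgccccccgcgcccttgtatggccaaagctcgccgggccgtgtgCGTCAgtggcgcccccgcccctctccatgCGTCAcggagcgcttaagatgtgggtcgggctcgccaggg
It held the half-site at 4 places, as did the windows of Nr4a2 and Nr4a3, a number that 0.137% of the 32851 windows in the table reach. Nr4a2, with the same number, did not pass the tissue threshold in Rosa26. At least 2, as in Fos, were found in 3.9%.

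Among the EGR zinc finger factors only Egr1 was well read. Its levels were 46.2, 43.4, 55.6 and 98 scaled CPM in aorta Rosa26 and 26.9 and 59.8 in aorta dNdK. In muscle they were 18.9, 119, 40.2 and 71 in Rosa26 and 45.9, 173 and 143 in dNdK. Muscle Rosa26 libraries spread 6.29-fold from lowest to highest, around the aorta range, and the tissue log2 fold change was -0.04 (95% interval -1.10 to 1.03). Egr3 stood at 0.117 to 3.02 scaled CPM over all libraries.

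Atf3, a stress-induced factor that binds CRE-like sites, had the widest spread between the 4 muscle Rosa26 libraries among the genes of the set with a mean of at least 5 scaled CPM there. It stood at 8.48, 8.13, 7.73 and 15.3 scaled CPM in aorta Rosa26 and at 8.38 and 13.5 in aorta dNdK. The muscle libraries read 3.55, 63.4, 87.7 and 16 in Rosa26 and 22.2, 52.5 and 9.69 in dNdK. The 3 highest muscle libraries, Rosa26 3, Rosa26 2 and dNdK 2, are those with barcode numbers 65 to 67, and the part of the barcode was not tested. The tissue log2 fold change in Rosa26 was -2.14 (SE 0.74, adjusted p = 0.0294), although the groups overlapped. That call was lost without any 1 of aorta Rosa26 1, 2 and 3 (adjusted p = 0.0674, 0.0674 and 0.0662) or muscle Rosa26 2 and 3 (0.0682 and 0.102). Without muscle Rosa26 3 the log2 fold change was -1.52. Scaled by library size alone it was -1.303, and the call was lost there too (adjusted p = 0.135).

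The Krüppel-like factors KLF2, KLF4 and KLF6 are zinc finger proteins, of which KLF2 and KLF4 are induced by laminar flow in endothelium. Klf2 stood at 105, 99.7, 176 and 248 scaled CPM in aorta Rosa26 and at 80.9 and 56 in aorta dNdK. Klf4 was at 26.5, 23.7, 53.8 and 102 in aorta Rosa26 and at 17.2 and 26.7 in aorta dNdK. For Klf6 these levels were 48.4, 62.2, 120 and 127 against 87.5 and 52.9. All 3 were highest in Rosa26 3 and 4, the 2 libraries with the most endothelial RNA, and the part of that RNA was not tested.

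In muscle, Klf2 stood at 80.3, 59.3, 42.6 and 150 scaled CPM in Rosa26 and at 148, 107 and 77.7 in dNdK. Klf4 stood at 23.9, 24.3, 29.1 and 46.6 in Rosa26 and at 39.2, 36.6 and 14.7 in dNdK. Klf6 stood at 76.7, 60.3, 53.3 and 89.9 in Rosa26 and at 93.6, 66.6 and 97.1 in dNdK. Muscle Rosa26 4 was the highest Rosa26 library for each of them. The tissue log2 fold changes in Rosa26 were 0.92 (95% interval -0.01 to 1.85) for Klf2, 0.73 for Klf4 and 0.36 for Klf6, none past the threshold.

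Myc, a growth-promoting factor, stood at 18.5, 22.2, 7.25 and 8.2 scaled CPM in aorta Rosa26 and at 5.86 and 4.39 in aorta dNdK. In muscle it was even, at 17, 13.8, 17 and 20 in Rosa26 and 26.2, 13.4 and 22 in dNdK. The 2 high aorta libraries, Rosa26 1 and 2, are also the 2 with the most lymphocyte markers, and the part of those cells was not tested. Between the tissues Myc did not pass the threshold in Rosa26 (log2 fold change -0.27, SE 0.35).

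The remaining immediate early genes act on signals and transcripts. Dusp1, a phosphatase that switches off MAP kinases, stood at 17.6, 27.2, 49.8 and 27.3 scaled CPM in aorta Rosa26 and at 50.4 and 38.1 in aorta dNdK. In muscle it stood at 75.1, 65.9, 70.4 and 98.9 in Rosa26 and at 39.6, 123 and 95.9 in dNdK. The Rosa26 groups did not overlap, with a log2 fold change of -1.33 (SE 0.31, adjusted p = 0.00392). Scaled by library size alone, that change was -0.446 and the call was lost (adjusted p = 0.227). Zfp36, which brings AU-rich messenger RNAs to decay, ranged from 33.2 to 42.5 in aorta, the narrowest range among these genes there.

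Ier2, a nuclear protein of the early response, ran the other way. It stood at 13.2, 11.2, 13.4 and 18.5 scaled CPM in aorta Rosa26 and at 10.6 and 14.1 in aorta dNdK. Muscle libraries held 4.29, 6.93, 5.27 and 9.75 in Rosa26 and 11.5, 12 and 16.8 in dNdK. It was higher in aorta in Rosa26 without overlap (log2 fold change 1.08, SE 0.31, adjusted p = 0.0112), whereas the dNdK groups overlapped. Ier3, a regulator of survival signals, stood at 1.58, 3.48, 6.28 and 12.8 in aorta Rosa26 and at 4.78 and 2.83 in aorta dNdK. Its levels in muscle were 10.6, 2.8, 2.39 and 7.13 in Rosa26 and 6.7, 4.34 and 4.48 in dNdK, so the tissues overlapped. Aorta Rosa26 spread 8.14-fold for Ier3, with Rosa26 4 the highest. Ier5 ranged from 0.187 to 1.63 over all libraries. Neither Ier3 nor Ier5 passed the threshold between tissues in Rosa26.

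**Figure D2:**
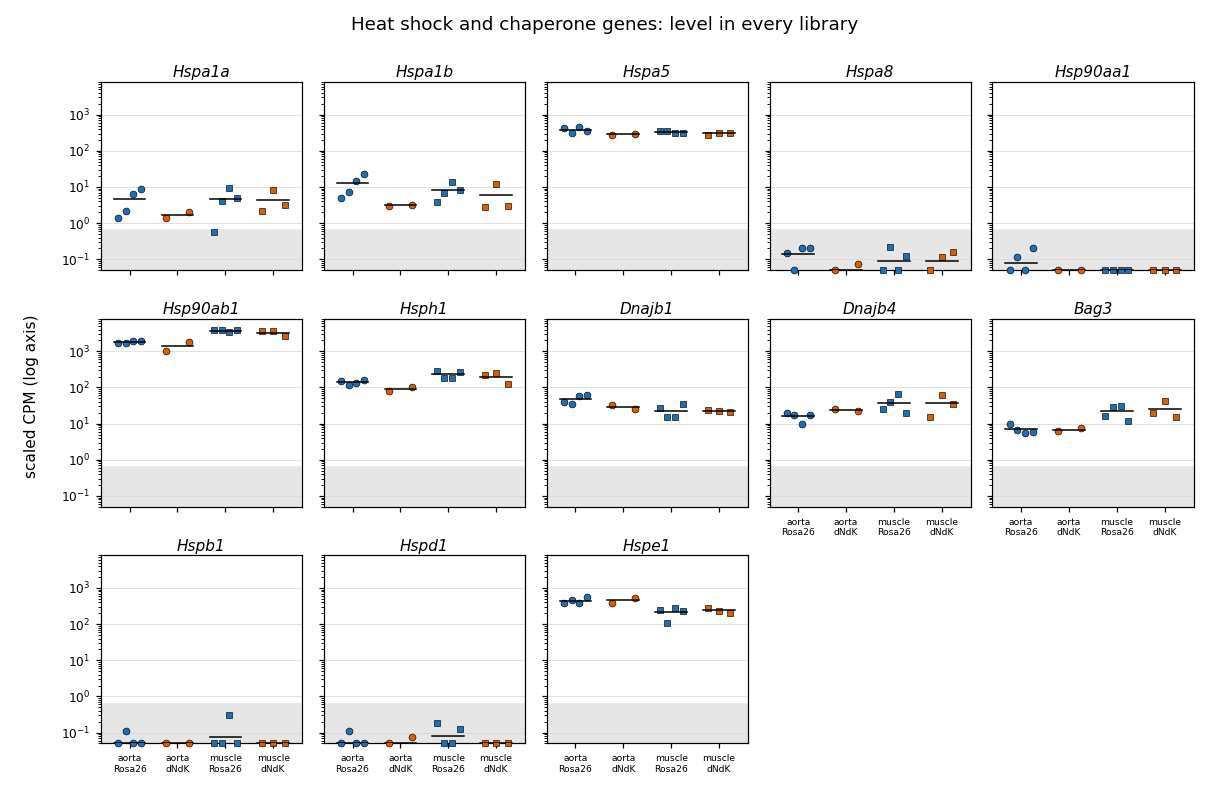
Level of each of the 13 heat shock and chaperone genes in every library, in scaled CPM on a log axis, drawn as for the immediate early genes. Hspa8, Hsp90aa1, Hspb1 and Hspd1 lie in the grey band in all libraries, Hsp90ab1 lies between 1040 and 3930 in all, and Hspa1b spreads 4.57-fold across aorta Rosa26.

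HSP70 proteins bind exposed stretches of unfolded chains. Hspa1a and Hspa1b encode the inducible cytosolic HSP70 from neighbouring genes on chromosome 17 (34969359 to 34972156 and 34956429 to 34959238 of GRCm38.p6). Their longest transcripts are 99.2% identical over 2201 aligned bases, so how reads split between them is uncertain. The 250 upstream bases of both are shown because the pair can hardly be told apart there either. They lie on the minus strand at chr17:34972157-34972406 for Hspa1a and at chr17:34959239-34959488 for Hspa1b, with the match to 2 facing units of the heat shock element, GAANNTTC, in capitals.
Hspa1a: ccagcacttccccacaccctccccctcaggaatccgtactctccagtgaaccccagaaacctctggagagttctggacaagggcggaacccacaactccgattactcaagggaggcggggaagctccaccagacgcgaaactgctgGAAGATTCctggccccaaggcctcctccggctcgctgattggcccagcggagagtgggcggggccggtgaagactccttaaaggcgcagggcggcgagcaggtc
Hspa1b: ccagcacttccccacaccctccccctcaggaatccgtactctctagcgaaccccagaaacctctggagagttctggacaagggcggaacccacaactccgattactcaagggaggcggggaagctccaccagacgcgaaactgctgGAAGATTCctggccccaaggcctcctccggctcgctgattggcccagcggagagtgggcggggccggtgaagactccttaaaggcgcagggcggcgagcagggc
The windows are identical at 247 of 250 bases, with the substitutions C44T, T47C and T249G, written as the Hspa1a base, its position from the 5′ end of the window and the Hspa1b base. GAANNTTC was in 5 of the 10 heat shock promoters with an entry (Hspa1a, Hspa1b, Hspb1, Hspd1 and Hspe1) and in 2 of the 18 immediate early promoters (Fosl2 and Jun), against 7.73% of all genes with an entry. The 5 are not separate cases, since the Hspa1a and Hspa1b windows are near copies and Hspd1 and Hspe1 are overlapping neighbours.

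Hspa1a stood at 1.35, 2.13, 6.49 and 8.62 scaled CPM in aorta Rosa26 and at 1.35 and 2.01 in aorta dNdK. Its muscle levels were 0.56, 4.03, 9.25 and 5 in Rosa26 and 2.11, 8.09 and 3.2 in dNdK. Hspa1b stood at 5.1, 7.4, 14.4 and 23.3 in aorta Rosa26 and at 3.06 and 3.2 in aorta dNdK. In both genes aorta Rosa26 3 and 4 were the high aorta libraries. Hspa1b in muscle was at 3.92, 6.6, 13.5 and 8.5 in Rosa26 and at 2.87, 12.2 and 2.96 in dNdK, with Rosa26 3 and dNdK 2 high for both genes. Neither differed between tissues past the threshold in Rosa26, at log2 fold changes of -0.08 (SE 0.73) and 0.59 (SE 0.51).

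Hspa5, the HSP70 of the endoplasmic reticulum, was even throughout. It ranged from 268 to 449 scaled CPM in aorta and from 282 to 358 in muscle, with a tissue log2 fold change in Rosa26 of 0.22 (95% interval -0.20 to 0.63). Its gene overlaps Rabepk, so reads there may not be told apart.

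HSP90 holds signalling proteins in a form ready for activation. Hsp90ab1 stood at 1710, 1680, 1940 and 1920 scaled CPM in aorta Rosa26 and at 1040 and 1770 in aorta dNdK. The muscle libraries read 3930, 3770, 3420 and 3920 in Rosa26 and 3700, 3630 and 2590 in dNdK. The tissues did not overlap in either genotype, and the log2 fold change in Rosa26 was -1.05 (SE 0.19, adjusted p = 0.000882). Scaled by library size alone it was -0.17 and lost the call (adjusted p = 0.384).

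Hsph1, the HSP110 that exchanges the nucleotide of HSP70, stood at 149, 116, 137 and 156 scaled CPM in aorta Rosa26 and at 81.7 and 102 in aorta dNdK. In muscle it stood at 287, 187, 185 and 263 in Rosa26 and at 218, 255 and 124 in dNdK. It was lower in aorta in Rosa26 without overlap (log2 fold change -0.72, SE 0.21, adjusted p = 0.0127), but 0.15 higher when scaled by library size alone (adjusted p = 0.488).

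The J proteins DNAJB1 and DNAJB4 hand substrates to HSP70, and BAG3 links HSP70 to selective autophagy in muscle. Dnajb1 stood at 39.9, 34.1, 58.5 and 61.4 scaled CPM in aorta Rosa26 and at 33.4 and 25.5 in aorta dNdK. Muscle libraries held 26.7, 15.1, 15.7 and 34.3 in Rosa26 and 24.3, 21.7 and 20.7 in dNdK. It was higher in aorta in Rosa26 (log2 fold change 1.08, SE 0.32, adjusted p = 0.0141), although aorta Rosa26 2 lay just below muscle Rosa26 4.

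Dnajb4 and Bag3 ran the other way. Dnajb4 stood at 20.3, 17.1, 9.87 and 17.7 scaled CPM in aorta Rosa26 and at 26 and 22 in aorta dNdK. Its muscle levels were 24.6, 38.7, 64.9 and 19.8 in Rosa26 and 15.3, 62.4 and 34.2 in dNdK. The tissue log2 fold change in Rosa26 was -1.20 (SE 0.37, adjusted p = 0.018), and without muscle Rosa26 3 it was -0.79 and lost the call (adjusted p = 0.058). Scaled by library size alone it was -0.34, again without a call (adjusted p = 0.441). Dnajb4 overlaps Fubp1 and a predicted gene.

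Bag3 stood at 9.76, 6.79, 5.38 and 5.89 scaled CPM in aorta Rosa26 and at 6.13 and 7.45 in aorta dNdK. The muscle libraries read 16.6, 28.3, 29.8 and 12 in Rosa26 and 19.5, 43.2 and 15.1 in dNdK. All muscle libraries lay above all aorta libraries in scaled CPM (Rosa26 log2 fold change -1.64, SE 0.33, adjusted p = 0.00176). Scaled by library size alone, the log2 fold change was -0.76 and the call was lost (adjusted p = 0.0742).

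The mitochondrial chaperonin is a chamber of HSP60 closed by a lid of HSP10. Hspe1, which encodes the lid, stood at 388, 458, 379 and 551 scaled CPM in aorta Rosa26 and at 393 and 529 in aorta dNdK. In muscle it stood at 253, 108, 272 and 226 in Rosa26 and at 274, 238 and 208 in dNdK. It was higher in aorta without overlap (Rosa26 log2 fold change 1.05, SE 0.29, adjusted p = 0.00971). Hspd1 and Hspe1 lie head to head on chromosome 1 and overlap by annotation, and the upstream windows of both held the heat shock element of 3 alternating units, on either strand, which 0.514% of all genes with an entry hold. That window is not shown for Hspe1, because it overlaps transcribed parts of the pair.

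The same tissue difference could be read in the dNdK mice, whose 2 aorta and 3 muscle libraries share no sample with the Rosa26 comparison. Of 28 genes tested, 5 were lower in aorta and none was higher at an adjusted p under 0.05, against 15.8% of 11426 genes (10.5% lower, 5.22% higher). DESeq2 called 8 of the 28 and 27.5% of all genes, and 10 had an unadjusted p under 0.05 in edgeR's quasi-likelihood test, as did 35% of all genes. The 5 were Nr4a1 (log2 fold change -5.74, SE 0.62, adjusted p = 0.00545), Fos (-3.87, SE 0.49, 0.00814), Myc (-1.97, SE 0.41, 0.0286), Jun (-1.63, SE 0.35, 0.0308) and Fosb (-3.10, SE 0.78, 0.046). Fosb held 9 and 5 counts in aorta dNdK and 10, 54 and 91 in muscle dNdK. It passed the filter on low counts here through its muscle libraries, so its call is not read as a result.

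Of the 14 genes called in Rosa26, 13 had the same sign in dNdK, all but Ier2 (log2 fold change -0.09). Over all genes called in Rosa26 that share was 94.5%, against 92.9% here. Nr4a1, Fos and Jun were called in both genotypes, 21.4% of the 14, and 26.8% of all genes called in Rosa26 were. The median log2 fold change of the 28 in dNdK was -0.82 and that of all genes -0.01, and 25 of the 28 estimates were below 0, as were 50.4% of all genes.

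Calls in dNdK rest on few libraries. Leaving out 1 of the 2 aorta dNdK libraries leaves 1, so only log2 fold changes are given. Without aorta dNdK 1 they were -5.29 for Nr4a1, -3.46 for Fos, -3.74 for Fosb, -2.05 for Jun and -2.20 for Myc. Without aorta dNdK 2 they were -6.44, -4.49, -2.63, -1.31 and -1.78 in the same order. Nr4a1, Fos and Myc passed without muscle dNdK 2, where 543 of all 11203 genes were called lower and 147 higher. Without muscle dNdK 3, the library with fat RNA, 8 of 28 passed as lower, while 1647 of all 11188 genes were lower and 1479 higher. The 8 were Nr4a1, Fos, Jun, Myc, Atf3, Nr4a3, Hsph1 and Bag3. Without muscle dNdK 1, Nr4a1, Fos, Fosb, Jun, Myc and Dusp1 passed. The share of all genes called in that setting is not given, so this count is not read as a result about the set. Scaled by library size alone, Nr4a1 and Fos passed as lower and Dnajb1 and Hspe1 as higher, with the median of all genes at 0.58. Of all 11426 genes 730 were then called lower and 1582 higher.

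**Figure D3:**
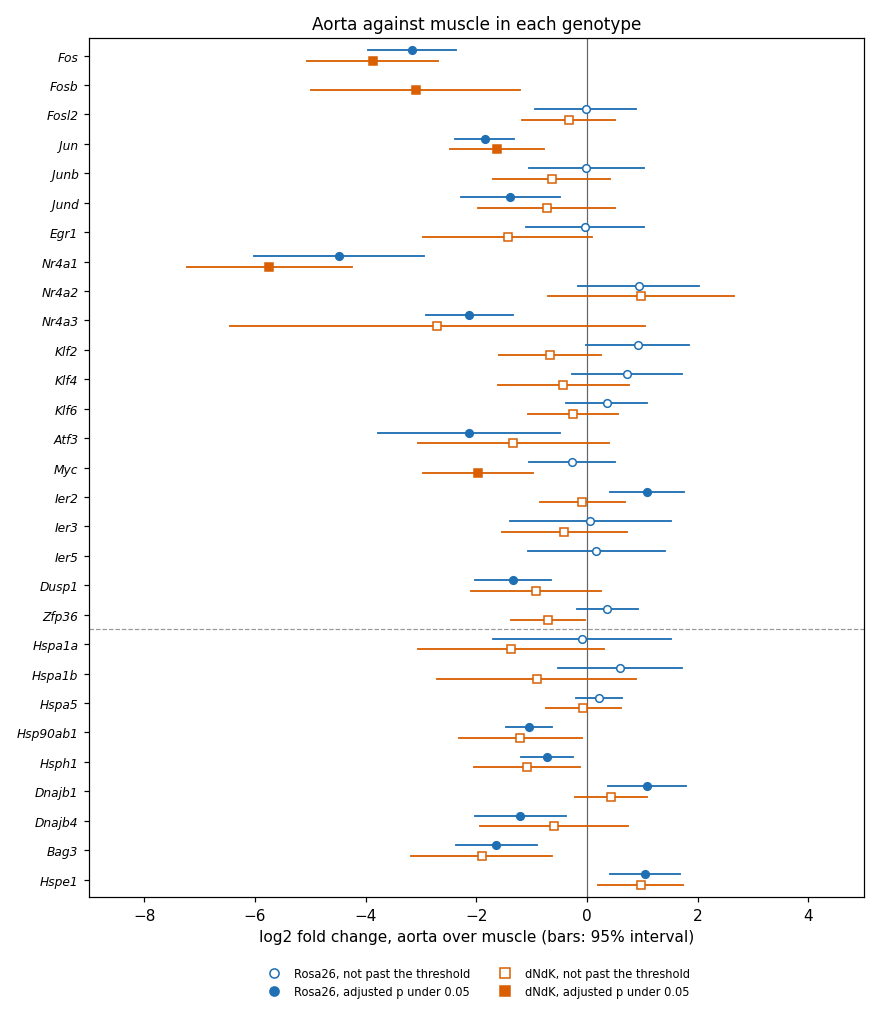
Log2 fold change of aorta over muscle for each gene tested, in Rosa26 (blue circles) and dNdK (orange squares), with bars for the 95% interval from the test's own degrees of freedom and filled points for an adjusted p under 0.05. The dashed line parts immediate early (above) from heat shock genes. Nr4a1 and Fos lie farthest to the left in both genotypes, and Ier2, Dnajb1 and Hspe1 to the right of 0 in Rosa26.

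The next question was whether the FOXM1 transgene goes with another level of these genes in aorta. None of the 29 genes tested passed the threshold between dNdK and Rosa26, and 1 of all 11920 genes (0.00839%) did. DESeq2 called none of the 29 and 13 genes in all (0.109%). At an unadjusted p under 0.05 in edgeR's quasi-likelihood test stood 4 of the 29 and 5.98% of all genes. All 4 estimates were lower in dNdK, where 3.65% of all genes had such a p and a lower estimate, at log2 fold changes of -1.96 (SE 0.64) for Hspa1b, -1.43 (SE 0.52) for Myc, -1.17 (SE 0.43) for Klf2 and -0.57 (SE 0.23) for Hsph1, each with an adjusted p of 0.757.

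The next smallest p-values belonged to Dnajb1 (log2 fold change -0.69), Klf4 (-1.20), Dnajb4 (0.60) and Nr4a1 (-1.79), also at an adjusted p of 0.757. Of the 29 estimates 22 were lower in dNdK, as were 54.2% of all genes, and their median was -0.35 against -0.05 for all genes. The 2 dNdK libraries lay below all 4 Rosa26 libraries for Hspa1b, Myc, Klf2, Hsph1, Dnajb1 and Hspa5, 6 of 29, as for 9.51% of all genes. They lay above them for Dnajb4, 1 of 29, as for 7.73% of all genes. With 2 dNdK libraries the intervals are wide, and that of Nr4a1 ran from -3.90 to 0.32.

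The values changed with the libraries compared. Against Rosa26 3 and 4 alone, without Rosa26 1 and 2, edgeR's quasi-likelihood test called 3 genes of the set lower in dNdK, Hspa1b (log2 fold change -2.54, adjusted p = 0.0313), Fosl2 (-1.23, 0.0455) and Klf2 (-1.59, 0.0485), of 28 tested. Of all 11189 genes tested there, 264 were called, 73 of them lower (0.652%) and 191 higher. For each of these 3 genes, Rosa26 1 and 2 held the lower Rosa26 levels, so the calls rest on the choice of controls. Fosl2 stood at 50.2, 39.8, 131 and 133 scaled CPM in Rosa26 1 to 4 and at 51.8 and 58.1 in dNdK. Against all 4 Rosa26 libraries its log2 fold change was -0.67 (adjusted p = 0.79 in the same test). The 3 libraries with heart RNA and the 3 without it each hold 1 dNdK library, so a comparison within them has no spread of its own for dNdK and is given as values. Between dNdK 2 and Rosa26 1 and 2, all with heart RNA, the log2 fold change was -2.19 for Myc, 0.11 for Klf4 and 0.05 for Nr4a1, and the median of the set was 0.15. Between dNdK 1 and Rosa26 3 and 4, without it, it was -0.35 for Myc, -2.13 for Klf4 and -3.16 for Nr4a1, and the median was -0.64. Both the dNdK and the Rosa26 libraries differ between these values. Between dNdK and Rosa26 in aorta, the median log2 fold change was -0.56 over 9 endothelial markers, -0.85 over 9 macrophage markers and -2.99 over 8 lymphocyte markers, with no estimate above 0 and none past the threshold. Over 7 cardiac markers it was 0.79 and over 10 fat markers 0.19, each with 7 estimates above 0 and none past the threshold. Over 8 fibroblast markers it was -0.11, with 3 above 0. Reads left unmapped were 7.21% and 7.45% in Rosa26 3 and 4 and 4.62% to 5.62% in the other aorta libraries. The part of these in the differences was not tested.

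In muscle, none of 29 genes tested differed between dNdK and Rosa26 at an adjusted p under 0.05 in edgeR's quasi-likelihood test, and none of all 10491 genes did (0%). DESeq2 called none of the 29 and 7 genes in all (0.0667%). At an unadjusted p under 0.05 stood 3 of the 29 and 7.55% of all genes. All 3 estimates were higher in dNdK, where 5.43% of all genes had such a p and a higher estimate.

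Zfp36 stood at 31.7, 41.2, 19.2 and 22.9 scaled CPM in muscle Rosa26 and at 50.1, 48.1 and 72.5 in dNdK (log2 fold change 1.01, SE 0.30). Ier2 had a log2 fold change of 1.05 (SE 0.33). For both, all 3 dNdK libraries lay above all 4 Rosa26 libraries, 2 of 29 as against 2.72% of all genes. Fosb stood at 0.187, 2.12, 1.19 and 2.13 in Rosa26 and at 1.91, 6.33 and 7.29 in dNdK, with overlap (1.86, SE 0.66). The adjusted p of all 3 was 0.656.

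Next in order of p came Fos (log2 fold change 0.53), Egr1 (0.96), Jun (0.25), Klf6 (0.32) and Nr4a1 (-0.47). Of the 29 estimates 14 were lower in dNdK, as were 46.9% of all genes. The median of the 29 was 0.03, as for all genes (0.03), with 20 immediate early genes at a median of 0.15 and 9 heat shock genes at -0.07. No gene of the set had all dNdK libraries below Rosa26, as 3.27% of all genes did. Taking only the 3 libraries with barcode numbers 65 to 67, of which 1 is dNdK and gives no spread for that group, the log2 fold change of Nr4a1 was 0.56. In the other 4 libraries, 2 of each genotype, it was -1.18 (adjusted p = 0.442), and none of the set passed there. Fat markers had a median log2 fold change of 2.98 over the 7 tested, with none past the threshold, which goes with muscle dNdK 3.

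**Figure D4:**
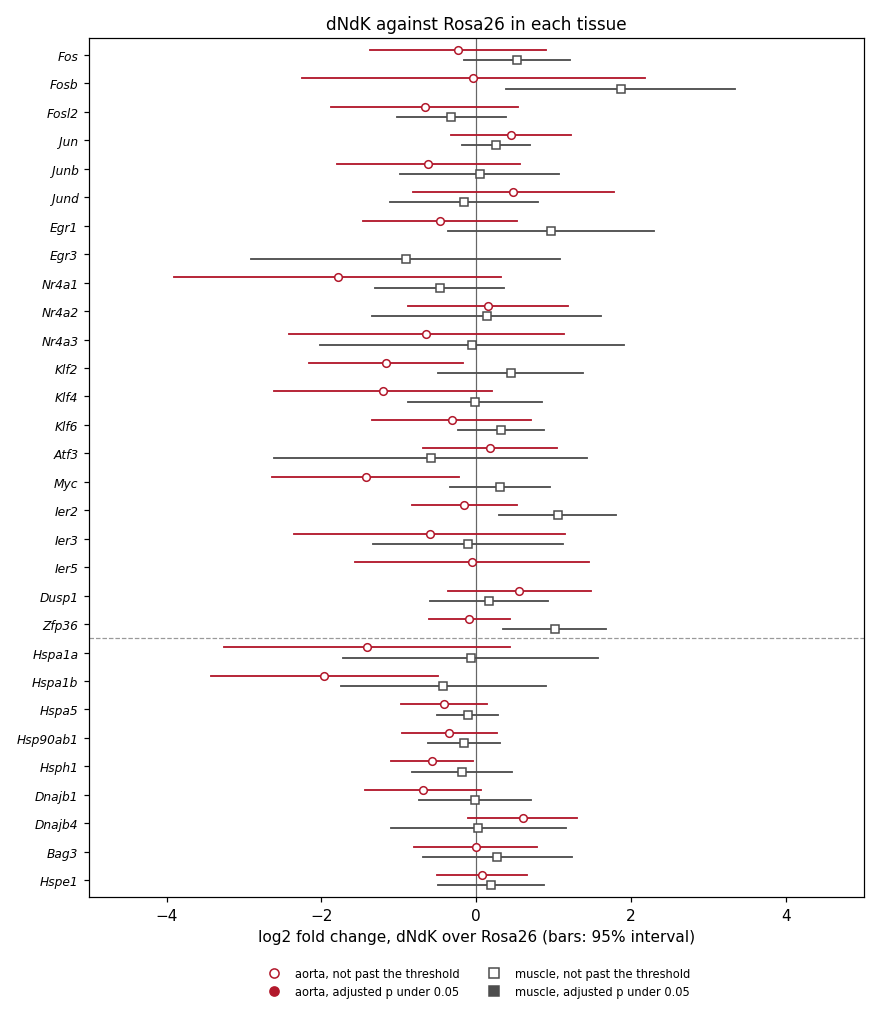
Log2 fold change of dNdK over Rosa26 for each gene tested, in aorta (red circles) and muscle (grey squares), with bars for the 95% interval from the test's own degrees of freedom. All points are open, since none passed the adjusted threshold, and 22 of 29 aorta points and 14 of 29 muscle points lie left of 0.

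Whether the genotype difference itself differed between the tissues was tested as an interaction over all 13 libraries. None of 30 genes passed in edgeR's quasi-likelihood test, and none of 12318 in all (0%). DESeq2 called none of the 30 and 6 genes in all (0.0487%). At an unadjusted p under 0.05 stood 4 of the 30 and 8.48% of all genes, all 4 below 0, as for 6.56% of all genes. They were Myc (log2 difference -1.70, SE 0.59), Zfp36 (-1.08, SE 0.39), Ier2 (-1.18, SE 0.46) and Klf2 (-1.59, SE 0.68), aorta minus muscle, each with an adjusted p of 0.583. The median of the 30 was -0.53 and that of all genes -0.10.

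**Figure D5:**
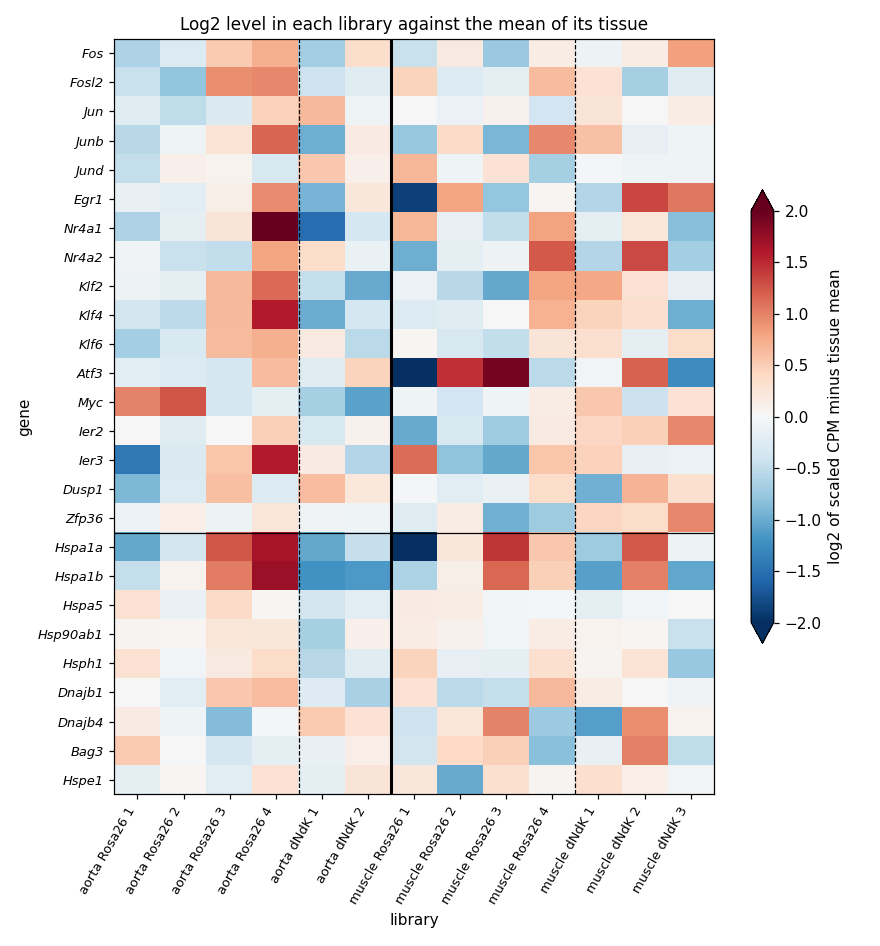
Log2 level of each gene in each library minus the mean of its tissue, for the 26 genes with a mean of at least 1 scaled CPM in both tissues. Red is above and blue below the tissue mean, with colours ending at 2 log2 units, the thick line between the tissues and dashed lines between genotypes. Klf2, Klf4 and Klf6 are red in aorta Rosa26 3 and 4, and Atf3, Dnajb4 and Bag3 are red together in muscle Rosa26 2, Rosa26 3 and dNdK 2.

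The distance between libraries of 1 group was described by the ratio of the highest to the lowest level, with no test. In aorta Rosa26, the median ratio was 2.58 over the 16 immediate early genes with a mean of at least 5 scaled CPM, 1.63 over the 8 heat shock genes and 1.78 over all such genes. In muscle Rosa26 these medians were 2.14, 2.38 and 1.57, and in muscle dNdK 1.91, 1.74 and 1.71. In the 2 libraries of aorta dNdK they were 1.5, 1.25 and 1.17. The widest ratios in the set were 24.7 for Atf3 in muscle Rosa26 and 8.27 for Nr4a1 in aorta Rosa26.

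In muscle, the 3 libraries with barcode numbers 65 to 67 lay above the other 4 for Atf3, Dnajb4 and Bag3, 3 of 29 genes, as for 8.54% of all genes. They lay below for Ier3 and Klf6, 2 of 29, as for 5.74%. Such shares are near those of all genes. In aorta, the 3 libraries with heart RNA lay above the other 3 for Bag3 (11.3% of all genes) and below for Ier3, Nr4a3 and Klf6 (7.18%).

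Pairs of genes were compared across libraries of 1 tissue, 6 relations in all, with exact two-sided permutation tests on log2 levels. In aorta, Fos and Egr1 moved together (Pearson r 0.865, p = 0.00972, adjusted p = 0.0417, Spearman rho 0.886, adjusted p = 0.0667, n = 6, exact permutation). Without the 2 libraries farthest from the median of Fos, Rosa26 4 and dNdK 1, r was 0.855. In muscle their r was 0.772 (n = 7, exact permutation p = 0.0442, adjusted p = 0.0664), and 0.93 without Rosa26 3 and dNdK 3.

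Hspa1a and Hspa1b gave r of 0.923 in aorta (exact permutation p = 0.0139, adjusted p = 0.0417, rho 0.83), which rests on Rosa26 3 and 4, since r was 0.364 without them. In muscle r was 0.743 (exact permutation p = 0.0405, adjusted p = 0.0664, rho 0.893) and 0.938 without Rosa26 1 and 3. How reads split between this pair is uncertain, as given above. Fos and Hspa1b gave 0.688 in aorta (exact permutation adjusted p = 0.178) and -0.388 in muscle (0.4). Without the 2 libraries farthest from the median of Fos these were 0.272 in aorta and 0.701 in muscle, where the sign turned, so no relation between these genes was shown. The technical subsets hold too few libraries for a value of their own. Hspa8 and Hsp90aa1 could not be compared, as both were near 0.

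Other genes of the same pathways were read from lists of regulators and relatives. In neither genotype comparison did any gene of these lists pass the threshold, out of 32 other early response genes, 24 upstream factors and MAP kinases, 30 heat shock factors and co-chaperones, 5 small heat shock proteins, 8 subunits of the cytosolic chaperonin, 22 genes of the endoplasmic reticulum's protein folding and 9 of mitochondrial protein quality control tested in each tissue. The interaction gave no call in them either.

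The lists that follow are to be read against the 27.5% of all genes called lower and 31% called higher between the tissues in Rosa26. There, 17 of 24 upstream factors and MAP kinases were lower in aorta and 3 higher, with a median log2 fold change of -1.31 against 0.08 for all genes (11 lower and 4 higher, median -0.43, by library size alone). Mef2c, a muscle transcription factor that responds to calcium signals, stood at 15.8 ± 7.65 scaled CPM in aorta and 653 ± 116 in muscle (SD, n = 4 each), and Map2k4, a kinase of the JNK pathway, at 22.4 ± 1.66 and 102 ± 13.9. Mapk3, the kinase ERK1, was higher in aorta, at 216 ± 69 against 66.7 ± 3.68, as were the kinases Rps6ka1 and Mapk7. Of 31 other early response genes 11 were higher and 10 lower, with a median of -0.11 that turned to 0.76 by library size alone and 0.14 by upper quartile scaling. Ccn1, a secreted matrix protein, was lower, at 24.9 ± 4.38 against 129 ± 47.3, and Nfkbiz, a nuclear regulator of NF-kappaB, higher, at 20.1 ± 2.77 against 3.67 ± 1.46. Btg1 and Pim1 were also among the most firmly higher genes, and Ppp1r15a and Klf9 among the lower.

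All 5 small heat shock proteins tested were lower in aorta, under each of the 4 scalings. Hspb6, a small heat shock protein of muscle, stood at 32.3 ± 15.7 scaled CPM in aorta and 1340 ± 306 in muscle (SD, n = 4 each), and Hspb3 at 0.706 ± 0.447 and 106 ± 14.1. Of 30 heat shock factors and co-chaperones 16 were lower and 5 higher, with a median of -0.62 that turned to 0.26, with 6 lower and 10 higher, by library size alone. Hsf2, a heat shock factor of development and differentiation, stood at 7.26 ± 1.85 against 49.1 ± 14.3, and Dnajb5, a J protein, at 21.2 ± 4.23 against 797 ± 288. Smyd1, a methyltransferase of striated muscle, was lower as well, and Hspa4l, Hspa12b and Dnaja3 were higher.

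The cytosolic chaperonin folds actin and tubulin. Of its 8 subunits 6 were lower in aorta and none higher, but by library size alone 1 was lower and 1 higher, and the median turned from -0.70 to 0.17. Cct7, Cct6a and Tcp1 led the lower subunits. Genes of folding in the endoplasmic reticulum gave 9 higher and 5 lower of 22 (median 0.50, and 1.38 by library size alone), with Pdia4, a disulfide isomerase, at 100 ± 4.94 against 40.6 ± 5.24. Serpinh1 and Manf were higher too, and Atf4, Herpud1 and P4hb lower. Mitochondrial protein quality control gave 5 higher and 2 lower of 9 (median 0.77, and 1.62 by library size alone), with Clpp, a matrix protease, at 221 ± 40.6 against 87.3 ± 11.5. Afg3l2 and Grpel1 were higher too, and Yme1l1 and Spg7 lower, though both stood above 0 by library size alone. In dNdK, where 15.8% of all genes were called, 4 of 5 small heat shock proteins were lower in aorta and none was higher.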

How the data were processed

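The 13 libraries were made from a primer pool that amplifies 1 short stretch of each gene, without molecular identifiers, and read on an Ion Torrent sequencer, per the labels' protocols. Reads were aligned with STAR 2.5.2b to mm10, with edgeR 3.28.1 and limma 3.42.2 also named, per the submitters' processing notes. The deposited values are raw read counts per gene from STAR, the authors' own, in columns for both strands together and each strand. Per the file headers, reads mapping to several places are set apart, which were 0.723% to 2.11% of reads. The column for both strands was used here, since 46.3% to 49.3% of counts fell on strand 1.

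The members and gene lists were chosen with earlier results of these data known. Genes were kept by edgeR's filterByExpr (10 counts, 15 in total) and scaled by TMM. Each comparison was fitted with edgeR 4.0.16's quasi-likelihood test in R 4.3.3 on the libraries of its own groups, with Benjamini-Hochberg adjustment over all genes tested and a threshold of 0.05. The SE of a log2 fold change was taken from its size and the test's F value (size divided by the root of F). The script was tested on simulated data. DESeq2 1.42.0, other scalings, single strands, left-out libraries and blocks were the alternatives. All replicate pairs differed beyond sampling noise (chi-square per degree of freedom at least 21).

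Whether libraries share animals is not given. The numbers in the deposited names recur in both tissues for 4 pairs of libraries. Their deviations from their group means correlated at 0.23, 0.287, 0.23 and 0.141. Rosa26 aorta and muscle libraries with different numbers correlated at -0.305 to 0.29, so these values cannot decide whether the numbers pair the tissues. The main fits took all libraries as independent, and the block on these numbers was an alternative. Genes were named by rule: per-library values for the 8 genes with the smallest p in each genotype comparison, the 10 largest called tissue differences, the gene pairs and genes spreading at least 5-fold within 4 libraries with a mean of at least 5, and up to 3 genes per direction of each other list. Transcript copies were found with blastn 2.17.0 (at least 95% identity over 100 bases) in GENCODE transcripts, and promoter sequences are from RefSeq's table on GRCm38.p6.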

Additional observations from a re-analysis of the deposited data

Results flagged for a closer look

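Each gene tested was examined in the 4 libraries of aorta Rosa26 and in the 4 of muscle Rosa26, 58 sets of values in all. In 2 of these sets, 1 library stood far from the other 3. Chance marks about 1 in 20 independent sets, but these sets share their libraries and are not independent. Nr4a1 in aorta Rosa26 4 stood at 39.1 scaled CPM, with 8.7 in the nearest library, and that gap was 0.885 of the group's range. Atf3 in the same library stood at 15.3 scaled CPM, with 8.48 in the nearest, a gap of 0.902 of the range. Both gaps exceed Dixon's critical value for 4 samples.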

How the results depend on the processing

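Depth limits Egr2, Egr3, Ier5 and Fosb, and 4 genes stayed at the floor. The cause of the changes below was not tested. In aorta, dNdK against Rosa26, the number of genes called was 13 with DESeq2, 0 on strand 1 alone, 0 on strand 2 alone and 0 with all 13 libraries in 1 fit. It was 30 without the heart-bearing libraries, 264 without Rosa26 1 and 2 (3 of the set lower) and 554 in the heart-bearing libraries alone, an alternative chosen after seeing the data (1 of the set lower, median 0.15, Klf4 0.114 and Nr4a1 0.05 with reversed sign). The subsets with or without heart RNA and that of barcode numbers 65 to 67 hold 1 dNdK library each, assumed to vary like Rosa26. In muscle, 7 genes were called with DESeq2 and 39 in barcode numbers 65 to 67 alone, also chosen after seeing the data (median 0.329, Nr4a1 reversed to 0.564), and Jun reversed to -0.207 on strand 1 alone. The interaction gave 6 genes with DESeq2.

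Between tissues in Rosa26, library size alone gave 10 higher, 4 lower and a median of 0.81, with Hsph1 reversed to 0.151. The genes of the set called higher numbered 1 on strand 1 alone, 7 without the heart-bearing libraries, and 5 each with upper quartile scaling (chosen after seeing the data) and the block on the deposited names. Except for upper quartile scaling, the shares of all genes called are not given for these settings. In dNdK, library size alone gave 2 higher, 2 lower and a median of -0.222, and upper quartile scaling a median of -0.618. DESeq2 called 3141 genes with 1 of the set higher, strand 1 alone 1145 genes, and strand 2 alone 3 of the set lower. For strand 2 the share of all genes called is not given. All 13 libraries in 1 fit called 3334 genes with 8 of the set lower, and leaving out the heart-bearing library 369 genes with 2.

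Libraries with the same title number correlated at -0.34 to 0.29 in their deviations from group means. Aorta Rosa26 1 and aorta dNdK 2, whose numbers differ, correlated at 0.34. These values cannot decide whether the title numbers pair the libraries. With a replicate block on the title numbers, 163 of 11920 genes were called in aorta between genotypes, 144 of them lower, with 1 of the set lower (Myc). Between tissues in Rosa26, 5 of the set were higher under this block, where the share of all genes called is not given. In dNdK it gave 3035 of 11426 genes called, 1574 of them lower, with 9 of the set lower.

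Leaving out each library in turn gave 0 to 1 genes called in aorta (median of the set -0.452 to -0.16), 0 to 3 in muscle (-0.123 to 0.189) and 0 for the interaction (-0.726 to -0.279). Between tissues it gave 5971 to 6440 genes in Rosa26, with 3 to 5 of the set higher, 9 to 11 lower and a median of -0.43 to 0.107. In dNdK it gave 322 to 3126 genes, with 1 to 8 of the set lower and a median of -0.975 to -0.674. Of single genes of the set, 240 of 264 values in the Rosa26 tissue comparison kept direction and side of the threshold, and 23 lost the call.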
